A study of Homo sapiens with 8 samples.

Results

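The replication-dependent histone genes of chromosome 6 were examined in HL-60, an established line of human promyelocytic leukemia cells. They were the protein-coding genes of GENCODE release 44, mapped to hg19, that lie on chromosome 6 between 26 and 27.9 Mb and whose symbol starts with H1-, H2AC, H2BC, H3C or H4C. The set held 49 of 20163 protein-coding genes, with 6 H1, 11 H2A, 12 H2B, 10 H3 and 10 H4 genes. HL-60 cells received 1 µM all-trans retinoic acid (ATRA) for 4 days, which differentiates the line towards granulocytes, and control cells received ethanol, the solvent of ATRA. All cells came from the same line, in the same medium, and no other agent was listed. For each of 2 histone marks, H3K4me3 and H3K27ac, chromatin immunoprecipitation sequencing (ChIP-seq) gave 2 replicate libraries per condition, thus 8 libraries in all. The labels do not say whether replicates came from separate cultures, so the spread between them may be technical. A single line is 1 model, and its response cannot be taken for that of other leukemia cells.

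Histones package DNA into nucleosomes, in which H2A, H2B, H3 and H4 form the core particle and H1 binds the linker DNA. Replication-dependent histone genes are transcribed mainly in S phase, when new DNA has to be packaged, and their mRNAs end in a conserved stem-loop in place of a poly(A) tail. NPAT, a substrate of cyclin E and CDK2, drives their transcription from nuclear histone locus bodies, and SLBP binds the stem-loop. H3K4me3 marks the nucleosomes around active or poised start sites, and H3K27ac marks active promoters and enhancers. Myeloid precursors divide rapidly and leave the cell cycle as they mature to granulocytes.

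The promoters are shown first, because the sequence elements below were found in a larger share of the members than of all promoters. The following 100 bases before the start of the canonical transcript, read from GRCh37 in the direction of transcription, belong to the first member of the H1, H3, H2A and H2B families along the chromosome. The start of H1-1 follows chr6:26018016-26018115 on the minus strand, H3C1 chr6:26020579-26020678 on the plus strand, H2AC4 chr6:26033847-26033946 on the minus strand and H2BC3 chr6:26043942-26044041 on the minus strand. Capitals mark the TATA box in the form TATAAA, the CCAAT box and the octamer ATTTGCAT, each of them or its reverse complement, and overlapping matches run together.
H1-1: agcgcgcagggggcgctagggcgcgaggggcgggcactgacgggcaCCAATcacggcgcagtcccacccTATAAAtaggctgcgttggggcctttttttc
H3C1: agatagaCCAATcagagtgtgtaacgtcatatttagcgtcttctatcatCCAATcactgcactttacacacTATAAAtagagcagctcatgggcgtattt
H2AC4: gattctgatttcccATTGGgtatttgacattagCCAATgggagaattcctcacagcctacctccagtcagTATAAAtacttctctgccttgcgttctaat
H2BC3: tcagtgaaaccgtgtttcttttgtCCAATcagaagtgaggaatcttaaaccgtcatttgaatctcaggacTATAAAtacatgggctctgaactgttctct
Each of these 4 held a TATA box close to the start and at least 1 CCAAT box before it, and no H4 promoter is among them.

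In the 200 bases before the canonical start, TATAAA was found on either strand in 29 of 49 members (59.2%), against 7.84% of the promoters of all protein-coding genes. On the sense strand at 20 to 40 bases before the start, the usual place of a TATA box, it was found in 26 members (53.1%), against 3.78% of all promoters. CCAAT was found in 43 members (87.8%, against 30.2%), that is in every H1, H2A, H2B and H3 member and in 4 of 10 H4 members. The octamer was found in 14 members (28.6%, against 1.22%), and these were 9 of 12 H2B and 5 of 11 H2A genes. H1, H3 and H4 promoters held no octamer in these 200 bases. The median share of G or C was 41.5% in the members and 64.5% over all promoters. A match is a description of letters and not a bound site.

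Most H2A and H2B genes stand in pairs that are transcribed away from each other, and the sequence between their starts serves as a shared promoter region. The stretch between the starts of H2BC11 and H2AC11 (chr6:27100575-27100821, plus strand) is shown for a pair that lay under peaks of both marks in every library. That between H2AC14 and H2BC14 (chr6:27782556-27782799, plus strand) is shown for a pair that lay under no H3K4me3 peak. Both were chosen after the peaks had been seen.
H2BC11/H2AC11: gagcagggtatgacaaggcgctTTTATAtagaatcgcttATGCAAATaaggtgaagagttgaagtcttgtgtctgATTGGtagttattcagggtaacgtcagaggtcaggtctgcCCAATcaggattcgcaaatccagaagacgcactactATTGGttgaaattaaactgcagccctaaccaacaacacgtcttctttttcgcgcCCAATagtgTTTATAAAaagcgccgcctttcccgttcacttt
H2AC14/H2BC14: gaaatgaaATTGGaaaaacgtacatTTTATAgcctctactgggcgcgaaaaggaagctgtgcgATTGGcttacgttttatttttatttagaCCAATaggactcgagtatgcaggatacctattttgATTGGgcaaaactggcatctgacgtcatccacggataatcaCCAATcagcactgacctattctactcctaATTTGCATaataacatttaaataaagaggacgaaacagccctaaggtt
Both stretches held an octamer, several CCAAT boxes and a TATA box on the strand of the left gene, and only that of H2BC11 and H2AC11 held a TATA box on the strand of the right gene.

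A stem-loop of 16 bases was searched from 250 to 1000 bases after the start, with a stem of 6 paired bases that begins with GG and a loop of 4 bases that begins with TT. It was found in 44 of 49 members (89.8%) and in 0.44% of all protein-coding genes, 88 in number. Capitals mark the paired bases of the 4 forms found.
form with loop tttc in most members: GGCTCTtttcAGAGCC
the same loop in H4 genes: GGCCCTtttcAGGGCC
form with loop ttta: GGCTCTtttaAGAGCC
form with loop tttt: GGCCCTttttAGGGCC
The stem that starts with ggctct was found with the loop tttc in 28 members and with ttta in 7, all of them H1, H2A, H2B or H3 genes. The stem that starts with ggccct was found with the loop tttc in 7 members and with tttt in 2, and all of these were H4 genes. H2AC11, H2AC15, H2BC10, H3C6 and H4C13 had no match in that stretch.

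The files gave the position of each broad peak and no read counts, so sequencing depth is unknown and lengths under peaks are reported without counting intervals. H3K4me3 libraries held 16160 and 13241 peaks in control replicates 1 and 2 and 16258 and 16487 in ATRA replicates 1 and 2. H3K27ac libraries held 15457 and 29616 in control and 28200 and 39332 in ATRA. The authors report fewer peaks found in both replicates in ATRA than in control for both marks. Their control counts exceed the peaks of the smaller control library, and here ATRA held more peaks within each replicate number. The conflict was not resolved, so directions of ATRA against control rest on the sample labels. The first H3K27ac control library was the smallest, with 28.8 Mb under peaks, while the other 3 had between 54.0 and 86.1 Mb. Among 7 markers of granulocyte precursors, the start of 4 lay under an H3K4me3 peak in each control library and that of 5 in each ATRA library, MPO among them. ELANE and AZU1, both granule protein genes, had no H3K4me3 peak in any library. None of 9 markers of other cell types had an H3K4me3 peak at its start, and 2 of them had an H3K27ac peak there in some libraries. In bulk chromatin, a mark on fewer cells and a weaker mark in each cell cannot be told apart.

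Most of the histone genes carried H3K4me3 at their start in both conditions. The start site (TSS) lay under an H3K4me3 peak in 39 and 35 of 49 members in control replicates 1 and 2, and in 39 and 38 members in ATRA replicates 1 and 2. These were 79.6%, 71.4%, 79.6% and 77.6% of the members, against 47.7% to 50.8% of all protein-coding genes. A peak was present in all 4 libraries at 35 members (71.4%), against 47.1% of all genes. It was present in none of them at 10 members (20.4%), against 48.3% of all genes. The remaining 4 members, H4C3, H1-5, H4C12 and H4C13, had it in some libraries. H4C3 had it in replicate 1 of each condition, and the other 3 lacked it in control replicate 2, the H3K4me3 library with the fewest peaks.

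H3K27ac at the start varied more between libraries. It was present at 27 and 38 members in control replicates 1 and 2, and at 35 and 39 members in ATRA replicates 1 and 2, so the conditions overlapped. Over all protein-coding genes these shares were 23.3%, 28.5%, 29.6% and 35.9%. The low first value belongs to the library with the smallest H3K27ac coverage. In all 4 libraries the mark was present at 24 members (48.98%), against 17.9% of all genes, and in none at 8 members (16.3%), against 58.7%. Among the 35 members with H3K4me3 in all 4 libraries, 22 (62.9%) also had H3K27ac in all 4, and each of the 35 had it in at least 2. Of 9459 other genes with H3K4me3 in all 4 libraries, 37.1% had H3K27ac in all 4 and 21.0% in none. These H3K27ac peaks had low scores: of 15, 13, 19 and 16 peaks over member starts in control replicates 1 and 2 and ATRA replicates 1 and 2, only 1, 1, 0 and 1 had a −log10 q of 5 or more. Of all H3K27ac peaks between 12.8% and 16.9% passed this score. Of 21 to 23 H3K4me3 peaks over member starts per library, 86.4% to 95.7% passed it.

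**Figure D1:**
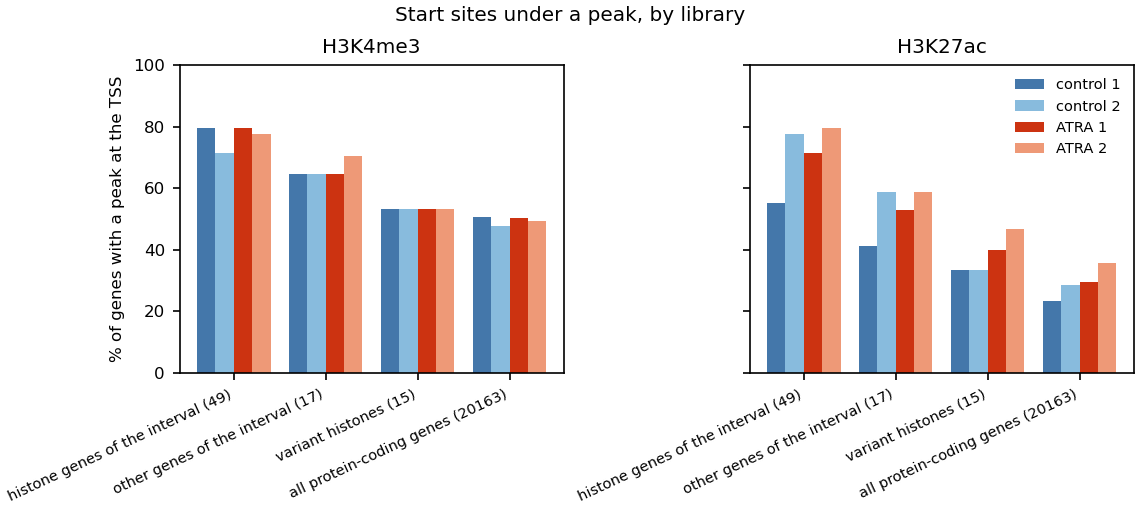
Percent of genes whose TSS lies under a peak, for H3K4me3 (left) and H3K27ac (right), with 1 bar for each library, in 4 sets of genes whose sizes are given on the axis. The bars of the 49 histone genes run from 71.4% to 79.6% for H3K4me3 and from 55.1% to 79.6% for H3K27ac, above those of all protein-coding genes in every library.

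The gene window, which is the gene record with 1 kb on either side, had a median length of 2496 bp in the members and 29219 bp over all protein-coding genes. It was under 5 kb in 41 members and between 5275 and 39610 bp in the other 8, whose records hold longer transcripts. An H3K4me3 peak filled the whole window in all 4 libraries for 13 members (26.5%) and for 1.16% of all genes. H3K27ac filled it in all 4 libraries for 10 members (20.4%) and for 0.124% of all genes. Such windows can show no gain, and short windows are filled more easily, so these shares describe coverage and are no comparison at equal length.

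Among the H1 genes, which encode linker histones, H1-2, H1-4, H1-3 and H1-5 were marked and H1-1 and H1-6 were not. H1-2 had 2731, 2621, 2731 and 2731 bp under H3K4me3 in control replicates 1 and 2 and ATRA replicates 1 and 2, in a window of 2731 bp. Its H3K27ac peak covered all 2731 bp in all 4 libraries. H1-4 had 2787, 2466, 2787 and 2787 bp under H3K4me3 in the same order, of a window of 2787 bp. Both genes thus lay under H3K4me3 over most of their windows in control and in ATRA. H1-1 had 0 bp of H3K4me3 in all 4 libraries and 55 bp of H3K27ac in control replicate 2. H1-6, which encodes the testis-specific linker histone H1t, had 0 bp of H3K4me3 in all 4 and 683 bp of H3K27ac in ATRA replicate 2. The 100 bases before the start of H1-6 (chr6:26108364-26108463, minus strand) and H1-4 (chr6:26156457-26156556, plus strand) are shown beside that of H1-1 above, with the same capitals. H1-4 was chosen after the peaks had been seen.
H1-6: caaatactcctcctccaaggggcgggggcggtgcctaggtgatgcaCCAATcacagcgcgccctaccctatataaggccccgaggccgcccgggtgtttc
H1-4: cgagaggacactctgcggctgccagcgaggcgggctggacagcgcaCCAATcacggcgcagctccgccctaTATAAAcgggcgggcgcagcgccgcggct
The stretch with CCAAT had the same place in the unmarked H1-1 and H1-6 and in the marked H1-4, and H1-6 had no exact TATAAA.

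The H2A and H2B genes, whose products form the dimers on the outside of the core particle, had H3K4me3 at the start of most members. It was present at the start in all 4 libraries at 10 of 11 H2A and 9 of 12 H2B members. The exceptions were H2AC14, H2BC14, H2BC9 and H2BC10, with H3K4me3 at the start in no library. H2BC6 was counted at the 5′ end of its record, 11702 bp before its canonical start. Its H3K4me3 peaks there had 5276 and 4227 bp in control replicates 1 and 2 and 4610 and 5139 bp in ATRA replicates 1 and 2. They were thus too short to reach the canonical start. H2AC7, H2AC4, H2AC11, H2AC13, H2AC15 and H2AC17 had H3K4me3 over their whole window in all 4 libraries. H2AC17 had 2487 bp and its partner H2BC17 2467 bp, the full windows, under both marks in all 8 libraries. H2AC16 lay at the other end for H3K27ac, with 0 and 593 bp in control replicates 1 and 2 and 2235 and 1875 bp in ATRA replicates 1 and 2.

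Of 8 pairs of neighbouring members transcribed away from each other with starts 170 to 979 bp apart, 7 joined an H2A to an H2B gene. In 6 of these, all but H2AC14 and H2BC14, 1 H3K4me3 peak lay over both starts in every library. In 4 of them, H2BC11 and H2AC11, H2BC12 and H2AC12, H2AC15 and H2BC15, and H2AC17 and H2BC17, 1 H3K27ac peak also did so in every library. Over H2BC4 and H2AC6 the H3K27ac peak was missing in control replicate 1. Over H2BC13 and H2AC13 it was present in replicate 2 of each condition and missing in replicate 1 of each. H2AC14 and H2BC14 had H3K27ac over both starts in control replicate 2 alone, where it filled the windows of 2476 and 2468 bp. In control replicate 1 both had 0 bp. In ATRA replicates 1 and 2, H2AC14 had 1442 and 1001 bp and H2BC14 had 1501 and 993 bp, beside the starts. The only pair that joined an H3 to an H2B gene, H3C7 and H2BC9, had 0 bp of either mark in all libraries.

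The H3 genes encode the histone whose tail carries both marks. Their start was under H3K4me3 in all 4 libraries at 7 of 10 members and in none at H3C6, H3C7 and H3C8. H3C2 had its whole window of 2511 bp under H3K4me3 in all 4 libraries. H3K27ac covered all 2511 bp of it in both control replicates and ATRA replicate 2, and 1327 bp in ATRA replicate 1. H3C10 had 3250 bp, its whole window, under H3K4me3 in all 4 libraries. Its H3K27ac ran to 1346 and 3250 bp in control replicates 1 and 2 and to 1904 and 3250 bp in ATRA replicates 1 and 2, so that it differed between replicates more than between conditions.

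The H4 genes encode the partner of H3, and their start was under H3K4me3 in all 4 libraries at 6 of 10 members. H3K27ac was at the start in all 4 libraries at 8 of 10, the largest share of the 5 families. H4C1 and H4C11 had both marks over their whole windows, 2402 and 2389 bp, in all 8 libraries. H4C12 had H3K27ac over its whole 2387 bp in all 4 libraries. Its H3K4me3 was narrower, at 2346 and 1127 bp in control replicates 1 and 2 and 1959 and 1798 bp in ATRA replicates 1 and 2. H4C7 was the only H4 member without either mark. The 100 bases before its start (chr6:26247225-26247324, minus strand), chosen after the peaks had been seen, held a TATA box and no CCAAT.
H4C7: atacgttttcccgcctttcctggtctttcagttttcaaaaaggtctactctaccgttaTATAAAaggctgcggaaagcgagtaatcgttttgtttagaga

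Of the 10 members without H3K4me3 at the start in any library, 5 were direct neighbours. The 49 genes fell into a first stretch of 28 members over 269 kb (chr6:26017260-26285866) and a second of 21 members over 768 kb (chr6:27093676-27861669). The first held 8 of the 10 unmarked members and the second the other 2, H2AC14 and H2BC14. H4C7, H3C7, H2BC9, H3C8 and H2BC10 followed each other without a marked member between them, and each had 0 bp of both marks in all 8 libraries. H3C6 also had 0 bp throughout, and H1-3 lay between it and H4C7. H1-3 had 2556 and 1160 bp of H3K4me3 in control replicates 1 and 2 and 2776 and 2296 bp in ATRA replicates 1 and 2. Its H3K4me3 peak of 1160 bp in control replicate 2 and its H3K27ac peak of 1200 bp in ATRA replicate 1 were the shortest over any member start for each mark. On the other side, H4C8 had 3074, 3231, 3426 and 4064 bp of H3K4me3 in the same order of libraries.

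The promoter elements were found among the unmarked members too. Among these 10, TATAAA was found in 4, CCAAT in 9, the octamer in 3 and the stem-loop in 8. Among the 35 members marked in all 4 libraries these counts were 23, 31, 11 and 33. Marks were read at the 5′ end of the gene record and elements from the canonical start. At H2BC6, which is among these 35, the starts lie 11702 bp apart. Reads from near-identical gene copies can be lost or misplaced, and how the authors treated them is not given in the sources used here. The share of 32-base words around the start that occur once in GRCh37 was therefore computed, within 1 kb on either side. It ranged from 68.8% at H4C11, which lay under both marks in all 8 libraries, to 100.0%. In the 10 unmarked members it ranged from 73.6% to 100.0%.

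**Figure D2:**
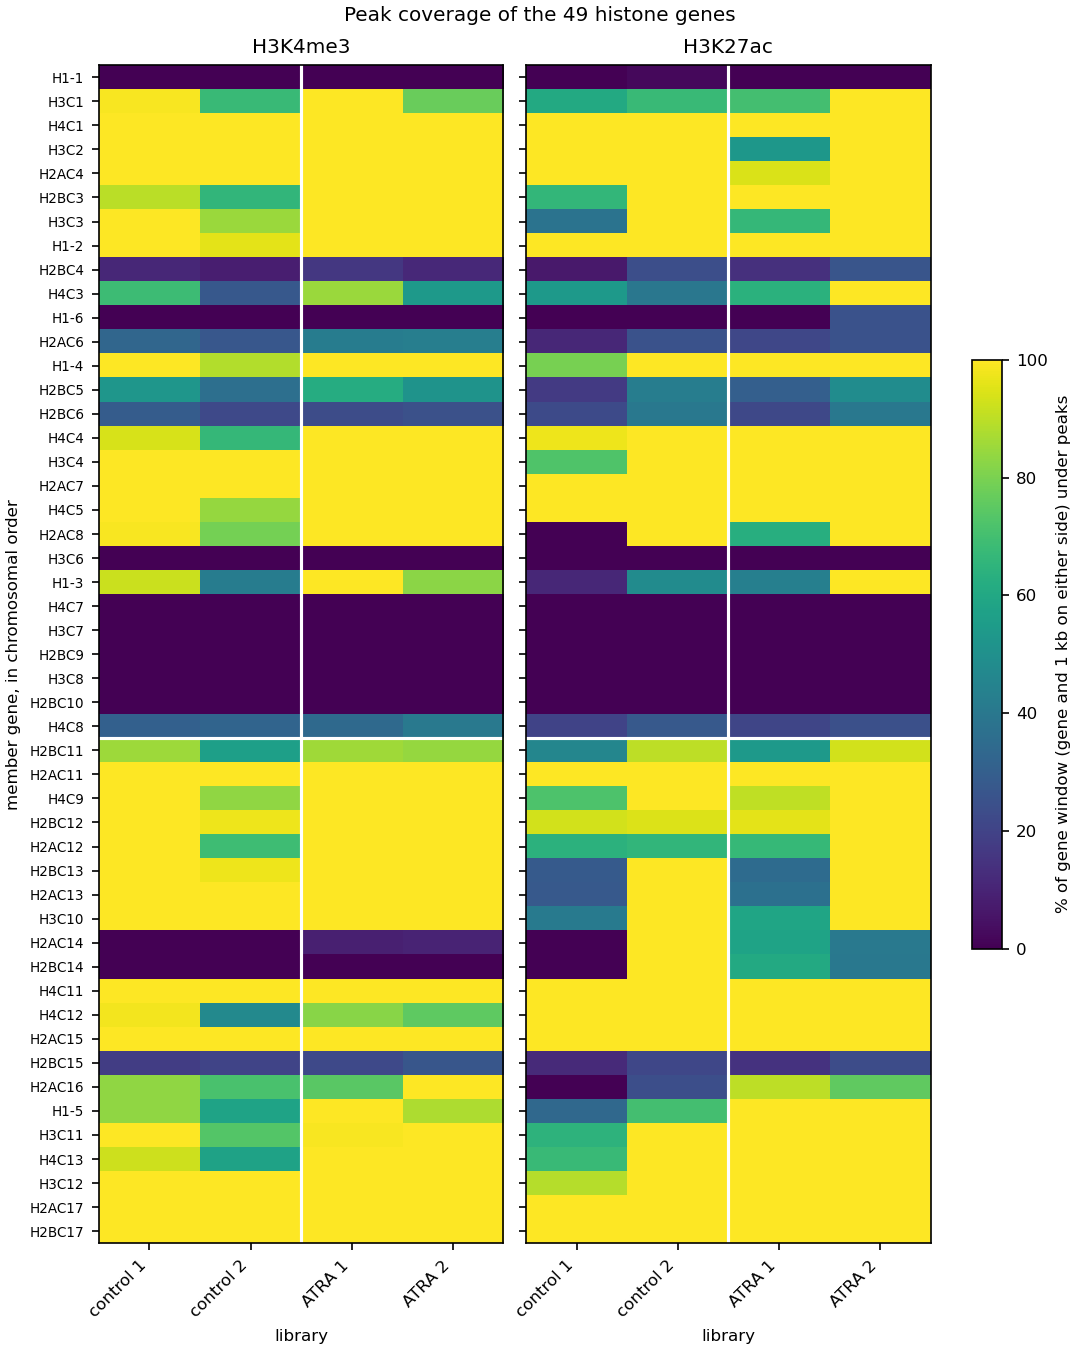
Percent of each gene window under peaks, with 1 row for each of the 49 histone genes in chromosomal order and 1 column for each library, for H3K4me3 (left) and H3K27ac (right). The white horizontal line parts the first stretch of 28 genes from the second of 21, the vertical line parts control from ATRA, and the dark block of rows from H4C7 to H2BC10 has 0% in all 8 libraries.

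Neighbouring members often lay under the same peak and are not independent measurements. The 39 member starts with H3K4me3 in control replicate 1 lay under 23 peaks, and the 38 with H3K27ac in control replicate 2 under 13. H4C9, H2BC12 and H2AC12 shared an H3K4me3 peak in every library, with lengths of 12102 and 9115 bp in control replicates 1 and 2 and 11433 and 11794 bp in ATRA replicates 1 and 2. The longest H3K4me3 peak over a member start had 15975 bp and joined H3C1, H4C1, H3C2 and H2AC4 in ATRA replicate 1. The longest H3K27ac peak ran over 39242 bp (chr6:26020720-26059961) in control replicate 2 and held the starts of H4C1, H3C2, H2AC4, H2BC3, H3C3 and H1-2. The median H3K27ac peak over a member start was 3280 and 8303 bp long in control replicates 1 and 2 and 5143 and 9552.5 bp in ATRA replicates 1 and 2. The median of all H3K27ac peaks was between 1052 and 1282 bp in these libraries. For H3K4me3, the medians over member starts ran from 3969 to 6483 bp and those of all peaks from 3545 to 3766 bp. Long peaks meet more starts, which by itself lengthens peaks counted through starts.

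Around starts with H3K4me3 in all 4 libraries, a larger share of the histone genes than of other genes lay under H3K27ac away from the start. At 2 kb before the start, 48.6%, 85.7%, 60.0% and 85.7% of the 35 members lay under H3K27ac in control replicates 1 and 2 and ATRA replicates 1 and 2. For the 9459 other genes these values were 6.41%, 13.9%, 14.3% and 20.7%. At 3 kb after the start, which is past the end of most histone genes, they were 37.1%, 82.9%, 60.0% and 80.0% for the members and 4.95%, 9.84%, 10.6% and 15.0% for the other genes. H3K4me3 differed less, with 48.6% to 74.3% of members and 37.6% to 54.7% of other genes at 2 kb before the start. At 3 kb after the start, H3K4me3 covered 42.9% to 71.4% of members and 49.7% to 67.8% of other genes. Histone genes stand close together, so that the mark of a neighbour is part of these values.

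**Figure D3:**
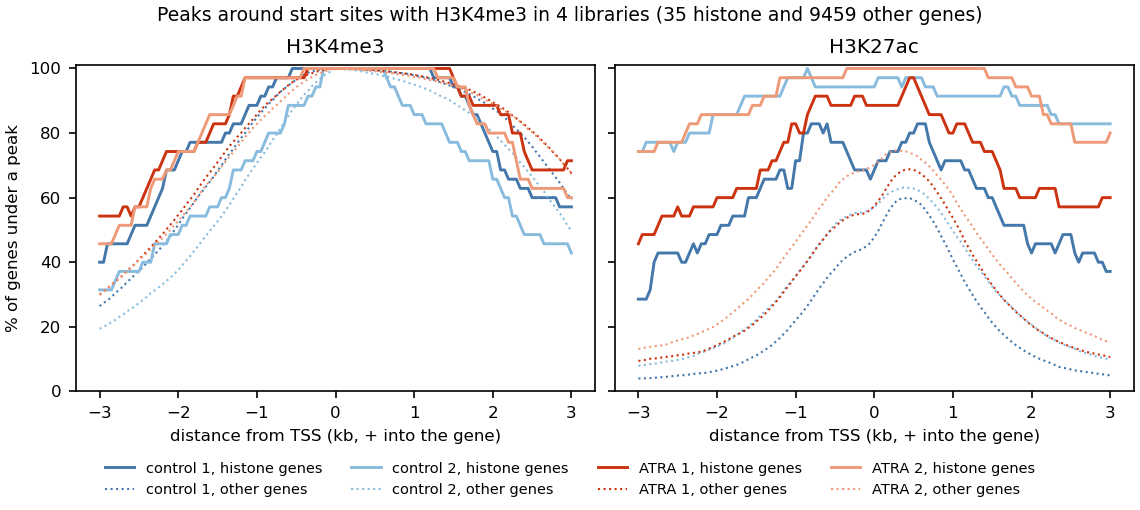
Percent of genes under a peak against the distance from the TSS in kb, positive into the gene, for H3K4me3 (left) and H3K27ac (right), with 1 color for each library. Solid lines are the 35 histone genes and dotted lines the 9459 other genes with an H3K4me3 peak at the TSS in all 4 H3K4me3 libraries, and the solid H3K27ac lines lie above the dotted line of the same library over the whole range shown.

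The comparison of ATRA-treated with control cells asks whether the marks over the histone genes changed with differentiation. The conditions are those of the sample labels, which conflict with the authors' peak counts as stated above. Over the member windows merged to 206 kb, H3K4me3 peaks covered 94.2 and 76.6 kb in control replicates 1 and 2 and 100.1 and 97.6 kb in ATRA replicates 1 and 2. Both ATRA libraries were above both control libraries, by 13.5 kb on average, and the control libraries differed from each other by more than that. The difference was 4.68 kb without control replicate 2 and 22.3 kb without control replicate 1. The exact two-sided permutation test gave p = 0.333, which is the smallest p that 2 against 2 libraries allow. On the log2 scale the ratio of ATRA to control was 0.21, and that of the length under H3K4me3 peaks over the whole genome was 0.22.

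H3K27ac peaks covered 60.0 and 98.5 kb of the merged windows in control replicates 1 and 2 and 78.8 and 103.8 kb in ATRA replicates 1 and 2. The conditions overlapped, and the difference of the means was 12.1 kb, with p = 0.667 in the exact two-sided permutation test. It was -7.20 kb without control replicate 1 and -0.43 kb without ATRA replicate 2, so its direction changed when either library was left out. Replicate 2 was above replicate 1 in both conditions, and leaving out a library sets unlike replicate numbers against each other. The log2 ratio of ATRA to control was 0.20 over the member windows and 0.87 over the whole genome. Within replicate 1 these log2 ratios were 0.39 and 1.17, and within replicate 2 they were 0.08 and 0.68, so the ratio over the histone genes was the smaller in both. With 2 replicates this difference between the histone genes and the genome was not tested, and 10 windows already full in all 4 libraries cannot gain.

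A member was called higher where both ATRA libraries exceeded both control libraries in bp under peaks of the gene window, and lower where both were below. For H3K4me3, 10 of 49 members (20.4%) were higher, against a background of 23.8% of all protein-coding genes, and 0 were lower, against 3.45%. The share of higher members was thus near that of all genes, whose median window was longer. With H3K4me3 at the start in all 4 libraries, 7 of 35 members were higher, against 40.6% of 9459 other genes. Of these 35 members, 13 had windows already full of H3K4me3 in all 4 libraries, which cannot gain. The share of all 49 members called higher was 8.16%, against 23.4%, without a flank, and 42.9%, against 24.5%, with a flank of 2 kb. In the narrower window of 1 kb on either side of the TSS, 4 members were higher (8.16%, background 3.87%) and 0 were lower (background 1.3%). For H3K27ac, 6 members (12.2%) were higher, against 25.2%, and 0 were lower, against 2.96%. Among genes with H3K4me3 at the start in all 4 libraries, 4 of 35 members (11.4%) and 36.9% of 9459 other genes were higher for H3K27ac. Of these 35 members, 9 had windows already full of H3K27ac in all 4 libraries. In the TSS window 6 members were higher (12.2%, background 14.2%) and 0 were lower (background 2.25%). With libraries compared within replicate numbers (replicate block), 15 members (30.6%) were higher for H3K4me3, against 31.4% of all genes under the same rule. For H3K27ac the block gave 12 higher members (24.5%, against 36.0%) and 1 lower member (2.04%, against 5.70%). Without control replicate 1, 27 members were higher for H3K4me3 (55.1%, against 44.9%) and 5 were lower for H3K27ac (10.2%, against 14%). Without control replicate 2, 2 members were lower for H3K4me3 (4.08%, against 17.4%) and 28 were higher for H3K27ac (57.1%, against 41.1%). Without ATRA replicate 1, 13 were higher for H3K27ac (26.5%, against 43.3%). Without ATRA replicate 2, 15 were higher for H3K4me3 (30.6%, against 34.1%) and 3 were lower for H3K27ac (6.12%, against 8.34%).

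Among the 10 members called higher for H3K4me3, the mean difference was largest at H2AC6 and H2BC4, which share a promoter region and a peak. H2AC6 had 5589 and 4586 bp under H3K4me3 in control replicates 1 and 2 and 7089 and 7263 bp in ATRA replicates 1 and 2, in a window of 16972 bp. H2BC4 had 4482 and 3328 bp in control and 6370 and 4549 bp in ATRA, so that its conditions were parted by only 67 bp, in the longest window of the set. H2BC15, whose record also holds a longer transcript, had 3482 and 3974 bp in control and 4188 and 5090 bp in ATRA. The windows of H2BC4 and H2BC15 were 39610 and 19165 bp long, and where in these windows the length was gained was not tested. That of H2BC4 holds the whole windows of the members H4C3 and H1-6. The H3K4me3 over H4C3, 1652 and 658 bp in control and 2042 and 1302 bp in ATRA, is thus counted at both genes. H4C8, also with a long record, had the values given above, with 3074 and 3231 bp in control and 3426 and 4064 bp in ATRA. Of the short genes, H1-5 had 2331 and 1627 bp in control and 2797 and 2449 bp in ATRA, with a peak at its start in all libraries but control replicate 2. H4C13 had 2201 and 1373 bp in control and 2387 bp, its full window, in both ATRA libraries. The other 4, H2AC8, H4C4, H2BC3 and H2AC14, had mean differences between 236 and 553.5 bp. H2AC14 had 221 and 251 bp in ATRA, none of it over the start, against 0 bp in both control libraries.

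Among the 6 members called higher for H3K27ac, the mean difference was largest at H2AC16, with 0 and 593 bp in control replicates 1 and 2 and 2235 and 1875 bp in ATRA replicates 1 and 2. H2AC16 was also the only member with H3K27ac at its start in both ATRA libraries and in neither control library. Its neighbour H1-5 had 946 and 1965 bp in control and 2797 bp, its full window, in both ATRA libraries, and was the only member called higher for both marks. In the ATRA libraries 1 H3K27ac peak, of 10264 bp in replicate 1 and 9847 bp in replicate 2, held the starts of H2AC16, H1-5, H3C11 and H4C13. These 4 starts thus do not count as 4 separate gains, and in control replicate 1 only H4C13 of them had H3K27ac at its start. In control replicate 2 the starts of H1-5, H3C11 and H4C13 already lay under 1 H3K27ac peak of 7931 bp. H4C3 had 1297 and 954 bp in control and 1533 and 2405 bp in ATRA. H3C1 had 1524 and 1704 bp in control and 1762 and 2508 bp in ATRA, a gap of 58 bp between the conditions. H2BC12 had 2321 and 2363 bp in control and 2394 and 2495 bp in ATRA. H2AC12, which shares its peak with H2BC12, had 1576 and 1618 bp in control and 1649 and 2457 bp in ATRA. The gaps of 31 bp between the conditions at this pair are smaller than the differences between replicates, and 3 members (6.12%, against 22.9% of all genes) were left when a gap of at least 100 bp was asked for. With peaks of −log10 q of 5 or more, 0 members were higher for H3K27ac, against 2.45% of all genes.

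**Figure D4:**
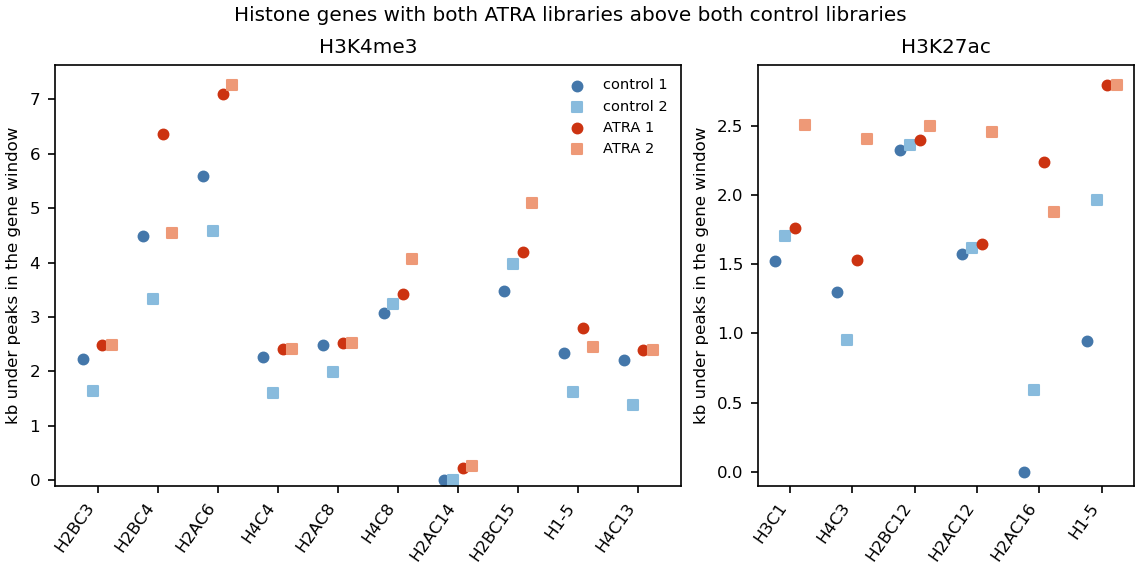
Length under peaks in the gene window, in kb, for the members in which both ATRA libraries lay above both control libraries, 10 for H3K4me3 (left) and 6 for H3K27ac (right), with 1 point for each library and no mean drawn. Circles are replicate 1 and squares replicate 2, and at H2BC4 for H3K4me3 and at H2AC12 for H3K27ac, among others, the ATRA replicates differ by more than the gap between the conditions.

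Nearly all listed genes that act on the histone genes had H3K4me3 at the start in both conditions, and fewer had H3K27ac there. The counts of these and the following lists stand beside backgrounds of 23.8% higher and 3.45% lower for H3K4me3 and of 25.2% higher and 2.96% lower for H3K27ac over all protein-coding genes. Of 9459 genes outside the members with H3K4me3 at the start in all 4 libraries, 40.6% were higher and 5.4% lower for H3K4me3. For H3K27ac 36.9% of these were higher and 4.5% lower. Of 17 genes of histone gene transcription and mRNA 3′ processing, 16 had H3K4me3 at the start in all 4 libraries. For H3K4me3, 10 (58.8%) were higher and 0 lower in ATRA, and for H3K27ac 5 (29.4%) were higher and 0 lower. H3K27ac lay at the start of 6 of these 17 genes in all 4 libraries and of 4 in none. NPAT had 4495 and 4693 bp under H3K4me3 in control and 5231 and 5286 bp in ATRA, and 2000 and 2273 bp under H3K27ac in control and 3168 and 3651 bp in ATRA. HINFP, which binds H4 promoters, had 0 and 382 bp under H3K27ac in control and 1911 and 1766 bp in ATRA, and its H3K4me3 libraries overlapped. Of 11 genes of histone supply and deposition, all 11 had H3K4me3 at the start in all 4 libraries. For H3K4me3, 5 (45.5%) were higher and 1 lower, and for H3K27ac 7 (63.6%) were higher and 0 lower. H3K27ac lay at the start of 7 of these 11 genes in all 4 libraries and of 1 in none. NASP, a chaperone of H3 and H4, had 1556 and 1797 bp under H3K27ac in control and 4122 and 6036 bp in ATRA, while its H3K4me3 libraries overlapped. HAT1, which acetylates new H4, had 2849 and 7390 bp under H3K27ac in control and 11570 and 17337 bp in ATRA. These windows are longer than those of the members, so the counts are not compared with theirs.

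Of 15 variant and replication-independent histone genes, 8 had H3K4me3 at the start in all 4 libraries and 7 in none. For H3K4me3, 0 were higher and 1 was lower, and for H3K27ac 3 (20%) were higher and 1 lower, beside 23.8% and 25.2% of all genes higher for the marks. H2AZ1 had its whole window of 4270 bp under H3K4me3 in all 4 libraries. H3-3B, 1 of the 2 genes of the variant H3.3, had 10560 and 7817 bp in control and 7362 and 7590 bp in ATRA under H3K4me3. CENPA, the centromeric H3, had 2353 and 7364 bp under H3K27ac in control and 1466 and 1571 bp in ATRA. Of 15 replication-dependent histone genes outside chromosome 6, 5 had H3K4me3 at the start in all 4 libraries and 10 in none, 2 (13.3%, against 23.8%) were higher and 0 lower for H3K4me3, and 0 were higher, against 25.2%, or lower for H3K27ac. H2AC1 and H2BC1, testis histones of chromosome 6 outside the interval, had 0 bp of both marks in all libraries. Of the 17 other protein-coding genes of the interval, 11 had H3K4me3 at the start in all 4 libraries. For H3K4me3, 7 (41.2%, against 23.8%) were higher and 0 lower, and for H3K27ac 1 (5.88%, against 25.2%) was higher and 0 lower. A gene without a name among these 17 starts at the same base as the member H2AC7 (chr6:26199521), so the same peaks are counted there. HIST1H4B, a histone gene of the interval that carries its older symbol in this annotation and so falls outside the rule, had 2357, 1644, 2357 and 2357 bp under H3K4me3 in control replicates 1 and 2 and ATRA replicates 1 and 2, and 2357 bp under H3K27ac in all 4 libraries.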

How the data were processed

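ChIP-seq libraries of H3K4me3 and H3K27ac were analyzed, 2 of ATRA-treated and 2 of control HL-60 cells for each mark. The authors trimmed adapters, mapped reads with Bowtie (build hg19) and ran MACS2 in its broad mode on each library by itself. For each peak they deposited a position and a −log10 q, used here as a filter at 5. The deposited fold enrichment and −log10 p columns hold values these measures cannot take and were not used, and no read counts or depths were at hand.

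Genes and start sites came from GENCODE release 44 on GRCh37, and 49 members met the rule. For each gene, the bp under peaks were summed over the gene with 1 kb on either side, and a start was marked where a peak lay over the 5′ end of the gene record. In 6 members that 5′ end was 24 to 11702 bp from the canonical start. At canonical starts, 34 instead of 35 members had H3K4me3 in both control libraries and 37 instead of 38 in both ATRA libraries. Conditions were compared by the overlap of their libraries, beside all 20163 protein-coding genes, and by an exact permutation test of the summed length over merged member windows. Coverage and calls were tested on simulated peaks. Libraries of the same replicate number deviated together, with a Pearson correlation over genes of 0.246 for H3K4me3 (12719 genes) and 0.445 for H3K27ac (13338 genes). The labels name no shared batch, and with 2 pairs the numbers were not read as a pairing.

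The members and gene lists were chosen with earlier results of these data known. Named were members without H3K4me3 at the start in 1 or more libraries, up to 6 with the largest difference for each mark and direction, testis histones, the longest and shortest peaks, the first promoter of each family, the first gene of each list and up to 3 further genes of it. H2AC1 and H2BC1 are in that rule but outside the interval. Protein sequences were not used here. A few items named by this rule are left out here. Motifs were searched in 200 bases before the canonical start. Alternatives were the q filter, other windows, other definitions of the start, peaks found in both replicates, equal peak numbers, a minimum gap, a replicate block and leaving out each library. Python 3.11.15, numpy 2.4.6, pandas 2.3.3 and matplotlib 3.10.9 were used.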

Additional observations from a re-analysis of the deposited data

How the results depend on the processing

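Of 94 alternative values, 74 kept the direction of the main value (covered lengths) or stayed within 1.5 times of it (counts), 17 counts moved by more and 3 covered lengths reversed. The 74 include the covered lengths of the replicate block, which equal the main values by construction. The H3K4me3 difference in covered length, 13.5 kb, kept its direction but not its size, with 4.12 kb around the TSS and between 4.68 and 22.3 kb with 1 library left out. The number of members higher for H3K4me3, 10 (20.4%, against 23.8% of all genes), was 4 without a flank (8.16%, against 23.4%). It was 21 with a flank of 2 kb (42.9%, against 24.5%) and 4 around the TSS alone (8.16%, against 3.87%). With 1 library left out it was between 10 (20.4%, against 26.6%) and 27 (55.1%, against 44.9%). A left-out library or the replicate block only loosens the calls, so counts of higher or lower members cannot fall below the main value. Lower members, 0 (against 3.45%), were 2 with peaks of −log10 q of 5 or more (4.08%, against 4.2%). With 1 library left out they were between 0 and 2 (4.08%, against 17.4%). The H3K27ac difference in covered length, 12.1 kb, was -2.21 kb with the stricter q, and between -7.20 and 31.3 kb with 1 library left out. Members higher for H3K27ac, 6 (12.2%, against 25.2%), were 0 with the stricter q (against 2.45%) and 12 with the replicate block (24.5%, against 36%). They were 3 with a gap of at least 100 bp (6.12%, against 22.9%). With 1 library left out they were between 6 (12.2%, against 28.7% or 31.6%) and 28 (57.1%, against 41.1%). Lower members, 0 (against 2.96%), were 1 with the replicate block (2.04%, against 5.7%) and between 0 and 5 (10.2%, against 14%) with 1 library left out. Counts of marked starts cannot fall either when a library is left out. Members with H3K27ac at the start in both ATRA libraries, 35, and in both control libraries, 25, were 0 in each with the stricter q, and those in control were between 27 and 38 with 1 library left out. With the stricter q, 0 or 1 H3K27ac peaks per library were left over member starts. Of all H3K27ac peaks 12.8% to 16.9% passed it, and of H3K4me3 peaks over member starts 86.4% to 95.7%. The cause of these shifts was not tested.

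The replicate block left the H3K4me3 difference at 13.5 kb and moved no other count by over 1.5 times than those named. Peak positions without counts limit what can be said of the strength of a mark: a window already full cannot gain, and 2 libraries per condition cannot give an exact permutation p under 0.333.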
